A study of Homo sapiens with 4 samples.

Results

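Peaks of the Flag-AKT1 E17K RIP-seq that lay in the span of a lncRNA gene and in the span of a protein-coding gene at the same time were examined here. They were chosen by position alone: a peak of the E17K list was taken when it overlapped by at least 1 bp both a lncRNA span and a coding span of the GRCh38 RefSeq annotation, introns included. Of the 4838 peaks of that list 219 (4.53%) met this rule and are called the members. They touched 116 lncRNA genes and 123 protein-coding genes. The experiment used MDA-MB-231, a breast cancer cell line, transfected with a plasmid for Flag-tagged AKT1 carrying the E17K substitution or for Flag-tagged wild-type AKT1 (WT). For each plasmid there was 1 anti-Flag immunoprecipitate library and 1 input library, 4 libraries in all, so no value has a replicate check and no p-value is given between plasmids. The plasmid protein was added to cells that keep their own AKT1. The list does not name its control reads. They were read here as input, following the sample labels, while the design text mentions an IgG control, and all input counts and folds depend on this choice.

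AKT1 is a serine/threonine kinase of the PI3K pathway, and E17K lies in its pleckstrin homology domain, the part that binds membrane lipids. In RIP, RNA that comes down with a protein is sequenced beside the RNA of the lysate. Many human lncRNA genes share ground with coding genes. An antisense lncRNA is copied from the opposite DNA strand of a coding gene, a divergent lncRNA starts beside a coding promoter, a readthrough transcript runs from 1 gene into the next, and a small nucleolar RNA host gene carries snoRNAs in its introns. A read in such ground can come from either gene, and only its strand can tell the genes apart when they run in opposite directions.

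The strand label of a peak was read against the genes first. Among peaks that lay in 1 gene span only, that of a coding gene whose strand was known, the label was opposite to the gene's strand in 2982 of 2992 peaks (99.7%, 95% Wilson interval 99.4% to 99.8%). These peaks belonged to 1005 coding genes, and in 997 of them every such peak had the opposite label. AKT1 itself, which the plasmid carries, follows this rule. In lncRNA genes of known strand it was opposite in 15 of 18 peaks (83.3%, interval 60.8% to 94.2%). The label was taken as the strand opposite to the RNA, so an assignment to a lncRNA rests on less evidence than one to a coding gene. Strands came from the RefSeq promoter table, which listed 155 of the 239 genes. Wilson intervals here cover counting error only, since each group has 1 library and peaks of 1 gene share their source.

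By this reading 75 of the 219 peaks had reads on the strand of the coding gene, with the lncRNA gene on the other strand. In 1 peak the reads lay on the strand of the lncRNA gene. In 26 peaks the lncRNA gene was a readthrough gene by symbol, each part of it being the symbol of a listed gene, in 6 a coding gene and a lncRNA lay on the same strand with 1 span inside the other, and 12 more lay on the same strand without either arrangement. The remaining 99 peaks (45.2%, interval 38.8% to 51.8%) were left unclear because at least 1 gene had no strand in the table. The rule leaves out some genes that are readthroughs by name: 10 ASNS peaks in CZ1P-ASNS, where CZ1P was not matched to a gene symbol, went to the other same-strand peaks, and 4 CTNND1 peaks in TMX2-CTNND1 to the unclear ones. With both added, 40 peaks lay in readthrough genes.

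The count of 75 against 1 has a limit that the list sets. For 48 of the 75 coding-strand peaks the chromosome has 0 peaks with the label that a read from the lncRNA would carry. Chromosomes 2, 5 and 9, for example, hold only peaks with the + label and chromosome 10 only peaks with the − label, as the plot of labels by chromosome shows. On such chromosomes the list gives no measurement of the lncRNA strand. On chromosomes 1, 7, 11, 17 and 19, where the other label has peaks, 27 of 28 peaks (96.4%, interval 82.3% to 99.4%) lay on the coding strand. Chromosome 11 alone gave 17 of these coding-strand peaks and also the lncRNA-strand peak. Several of the 28 peaks come from the same gene and nearly always share its label, so the interval is narrower than independent peaks would give. On chromosome 19 the list has only 1 peak of the + label beside 66 of the − label, so the lncRNA strand was hardly measured there. No member was overlapped by a peak of the other label.

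**Figure D1:**
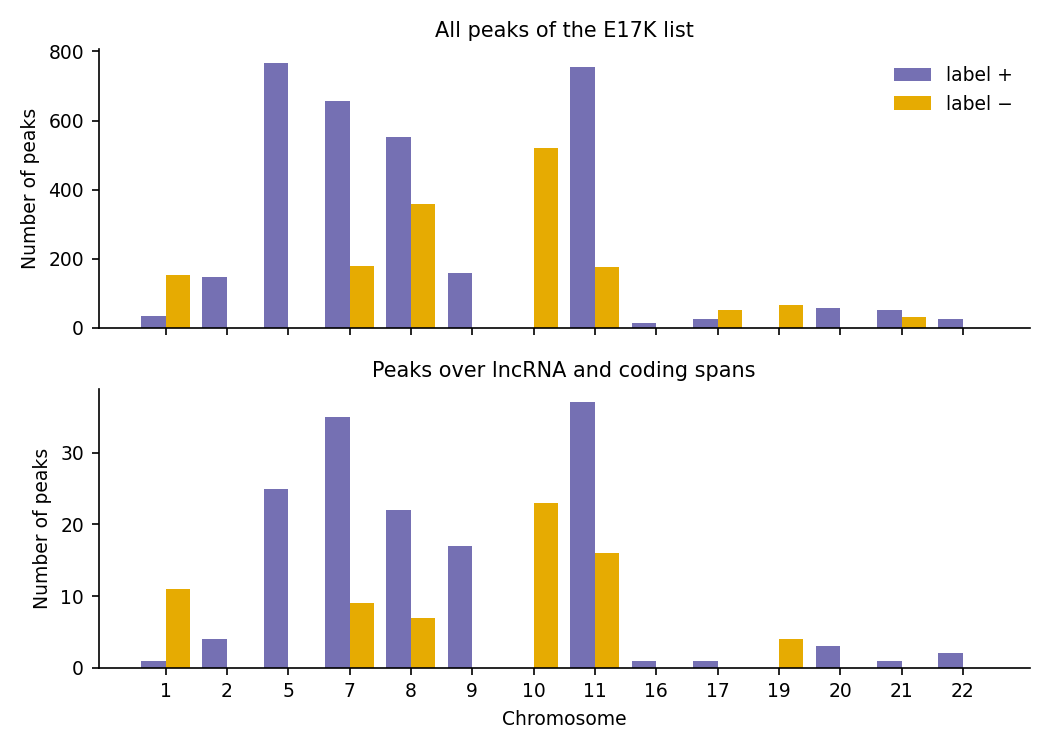
Number of peaks with the + and the − label on each chromosome (x axis) that holds a peak over both kinds of span. The upper panel counts all peaks of the E17K list and the lower panel the 219 peaks over lncRNA and coding spans; chromosome 10 has 520 peaks of the − label and 0 of the + label, and chromosome 5 has 768 of the + label and 0 of the − label.

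Sequences are shown for 2 peaks, because together they show how the ground is shared: the peak assigned to a lncRNA, and a coding-strand peak that runs over the start of an antisense lncRNA. They were read from the RefSeq promoter windows of GRCh38.p14 and are written 5′ to 3′ on the strand of the reads. Capitals mark the bases that lie in both the lncRNA span and the coding span. The STIP1 peak is given whole (chr11:64185091-64185295, minus strand) and the HNRNPK peak over 249 of its bases (chr9:83971896-83972144, minus strand).
STIP1 and LOC124902686: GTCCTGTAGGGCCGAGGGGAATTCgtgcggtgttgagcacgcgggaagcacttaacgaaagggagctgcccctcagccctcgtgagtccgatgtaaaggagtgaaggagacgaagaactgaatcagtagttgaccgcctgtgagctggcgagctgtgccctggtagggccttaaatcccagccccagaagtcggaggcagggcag
HNRNPK and HNRNPK-AS1: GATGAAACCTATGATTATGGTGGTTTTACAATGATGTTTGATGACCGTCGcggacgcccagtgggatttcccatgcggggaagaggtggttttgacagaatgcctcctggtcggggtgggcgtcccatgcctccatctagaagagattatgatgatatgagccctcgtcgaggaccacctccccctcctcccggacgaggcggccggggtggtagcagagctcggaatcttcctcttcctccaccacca
The STIP1 peak shares only 24 of its 205 bases with the STIP1 span, whereas the other 181 lie before the STIP1 start and inside LOC124902686. In the HNRNPK peak the part shown reaches 50 bases into the lncRNA span. In all, 13 of the 219 peaks touched a promoter window, which runs from 250 bases before a gene's start to 50 bases after it. Windows were listed for 155 of the 239 genes, so 13 is a minimum. The share over the whole list is not given here, so the count is no trait of the members.

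The peak assigned to a lncRNA lay at the head of STIP1, which encodes a co-chaperone that links HSP70 and HSP90. LOC124902686 runs from position 64175102 to 64185681 of chromosome 11 on the minus strand, and STIP1 from 64185272 to 64204543 on the plus strand. In this peak there were 14 immunoprecipitate and 9 input reads, which is a fold of 1.56 (interval of the immunoprecipitate share 40.8% to 77.8%). A fold is the number of immunoprecipitate reads over the number of input reads of a peak, not scaled for library size, with input counts of 3 or lower set to 3. The same lncRNA had a further peak 387 bp before the STIP1 start (chr11:64184681-64184885) with the same label, 23 immunoprecipitate and 10 input reads. STIP1 had 2 peaks of the other label inside its own span. These held 48 and 22, and 47 and 18 immunoprecipitate and input reads, folds of 2.18 and 2.61. Thus at this locus peaks of both labels were listed, each with the label of the gene in which it lay, and the intervals of the folds overlap.

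Folds of the 219 peaks were close to those of the list as a whole. All 4838 peaks had a median fold of 2.18 (quartiles 1.83 to 2.75), and the 219 peaks a median of 2.07 (1.74 to 2.67). The reads of all 219 summed to 21229 in the immunoprecipitate and 10523 in the input, giving 2.02 (1.97 to 2.07). The whole list gave 1.95 and, without the 5 AKT1 peaks, 2.06 (2.05 to 2.07). Peaks in coding spans only had a median of 2.19 over 4488 peaks, and peaks in lncRNA spans only a median of 2.22 over 42 peaks. The fold varied with depth, as its median over the whole list was 2.40 in peaks with 11 to 19 immunoprecipitate reads and 2.05 in peaks with at least 120. Among peaks with at least 30 immunoprecipitate reads the medians were 1.99 for the 145 such members and 2.11 for the list.

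Between classes the medians ranged from 1.96 to 2.29 apart from the lncRNA-strand peak. Coding-strand peaks had a median of 2.0 (quartiles 1.71 to 2.28), and 53 of the 75 were below the median of the list. Readthrough peaks had 2.23 (1.82 to 2.64), same-strand hosts 1.96, the other same-strand peaks 2.07 and the unclear peaks 2.29 (1.78 to 3.05). Summed reads gave 1.96 (1.89 to 2.03) for the coding strand, 2.19 (1.98 to 2.41) for readthrough and 2.06 (1.98 to 2.13) for the unclear peaks, intervals that overlap from class to class. The coding-strand interval lay below that of the list without the AKT1 peaks, 2.06 (2.05 to 2.07), but held the 1.95 of the whole list. Depth differed between classes, with a median of 56 immunoprecipitate reads in coding-strand peaks, 31.5 in readthrough peaks, 87 in host and other same-strand peaks together and 40 in unclear peaks. Within peaks of 30 to 59 immunoprecipitate reads the coding strand had a median of 1.98 over 18 peaks and the unclear class 2.37 over 23, and in peaks of at least 120 reads they had 1.97 and 2.0. The part of depth in the order of the classes was not tested further.

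**Figure D2:**
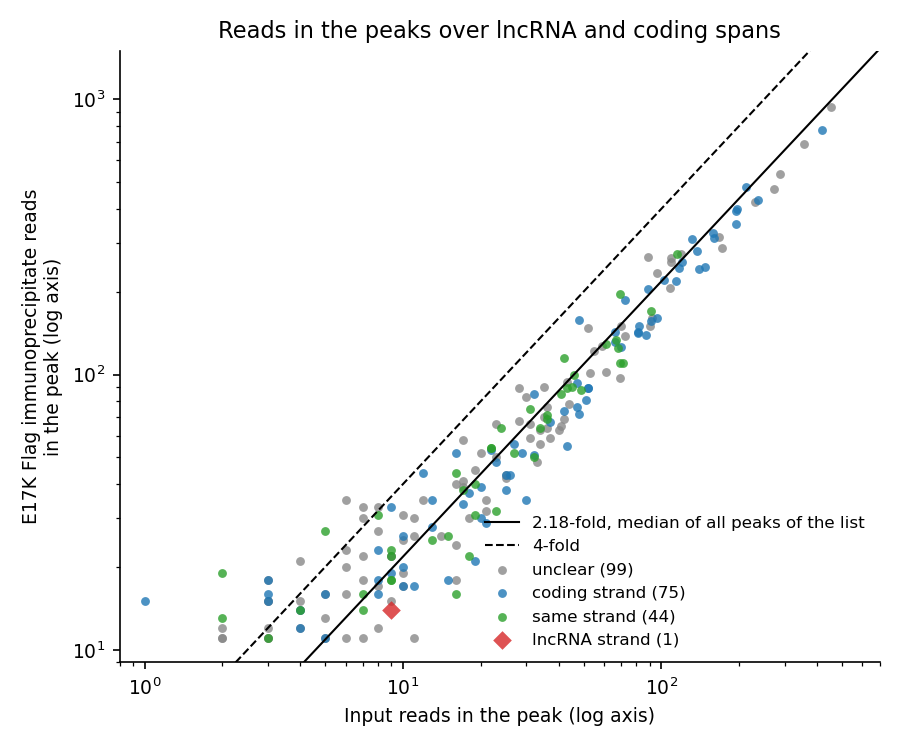
Immunoprecipitate reads (y axis) against input reads (x axis) of each of the 219 peaks, both on log axes, coloured by class; the 44 same-strand peaks are the readthrough, host and other same-strand classes together. The solid line is the median fold of the whole list, 2.18, and the dashed line 4-fold; peaks at or above 4-fold hold no more than 35 immunoprecipitate reads.

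**Figure D3:**
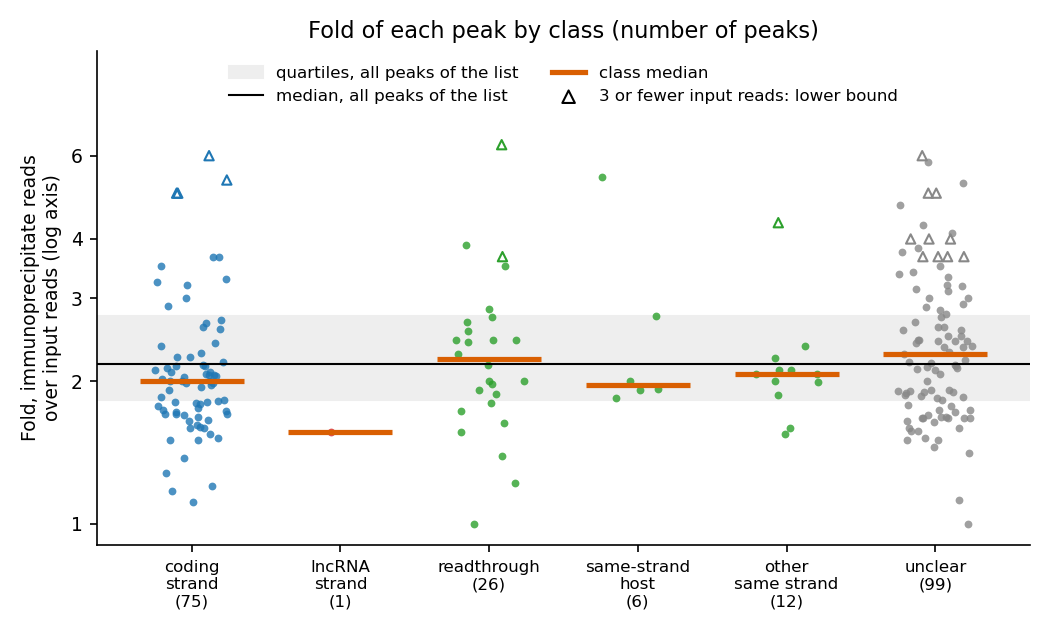
Fold of each peak (y axis, log) in the 6 classes (x axis, with the number of peaks), with class medians in orange and the median and quartiles of the whole list as a line and a grey band. Open triangles are lower bounds, from 3 or fewer input reads; the medians of classes with more than 1 peak lie between 1.96 and 2.29, all inside the grey band.

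No peak of the 219 differed from the rest of the list by Fisher's exact test of its reads against those of all other peaks (two-sided, Benjamini-Hochberg adjustment over the list). The test called 4 of 4838 peaks with more immunoprecipitate reads (0.0827%) and 9 with fewer (0.186%). At an unadjusted p under 0.05, 13 members (5.94%) had more and 3 (1.37%) fewer, beside 6.72% and 2.07% of the list. A binomial test that took the list's median fold as its null called 31 peaks of the list and 0 members. The lowest adjusted p among members, 0.0831 by Fisher's exact test, was that of a peak in RAD21, a cohesin subunit, with 267 immunoprecipitate and 89 input reads, a fold of 3.00. This test compares 2 libraries and not the conditions.

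A fold of at least 4 was reached by 18 of the 219 peaks (8.22%, interval 5.26% to 12.6%), near the 8.54% of the whole list (413 of 4838). In 12 of the 18 the fold is a lower bound, from 3 or fewer input reads, and 4 had at least 30 immunoprecipitate reads. By class they were 4 coding-strand, 1 readthrough, 1 host, 1 other same-strand and 11 unclear peaks. The highest values stood on few reads. TIMM23B, a gene with a near-identical copy elsewhere in the genome so that its reads are uncertain, had 19 immunoprecipitate and 2 input reads in its readthrough gene TIMM23B-AGAP6, at least 6.33-fold. POLD4, a DNA polymerase delta subunit, had 18 and 3 reads against LOC100130987, at least 6.0-fold, and SHLD2 of the shieldin complex had 18 and 3 reads over LOC105378410, also at least 6.0-fold. Among peaks with at least 30 immunoprecipitate reads the highest was PPP1R16A over LOC101928953, with 35 and 6 reads, a fold of 5.83 with an unclear strand.

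Among the 75 coding-strand peaks were the ends and bodies of strongly read coding genes. IFITM3, an interferon-induced antiviral membrane protein whose family has near-identical members, held the deepest of them, with 773 immunoprecipitate and 417 input reads over IFITM3-AS1, a fold of 1.85. A further IFITM3 peak had 35 and 30 reads, a fold of 1.17. HNRNPH1 and HNRNPK encode RNA-binding hnRNP proteins. HNRNPH1 had 8 peaks inside the span of LOC128966623 and none outside it, with 20 to 478 immunoprecipitate reads each. Its folds ran from 1.66 to 2.30, and its summed reads were 1717 and 840, a fold of 2.04. HNRNPK had 4 peaks over HNRNPK-AS1, with 429, 400, 81 and 89 immunoprecipitate reads against 236, 196, 51 and 52 input reads. All 4 folds, 1.82, 2.04, 1.59 and 1.71, were below the median of the list.

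STOML2, a protein of the inner mitochondrial membrane, had 3 peaks over PIGO-AS1, with 313, 186 and 394 immunoprecipitate and 160, 72 and 195 input reads, folds of 1.96, 2.58 and 2.02. HSPA9, the mitochondrial chaperone mortalin, had 311 and 131 reads in the peak at the start of LOC105379193 and 51 and 32 in a further peak, folds of 2.37 and 1.59. ATP5F1C, a subunit of ATP synthase, had 4 peaks over LOC105376392 with folds from 1.38 to 1.81. HSPA9 and ATP5F1C, like VIM, NQO1, XPO1 and BDNF, are named after their values were seen.

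MACROH2A1, a histone variant, had 352 and 195 reads over PITX1-AS1, a fold of 1.81. XPO1, the exportin of proteins with a nuclear export signal, had 158 and 48 reads over USP34-DT, a fold of 3.29. VIM, the intermediate filament vimentin, had 219 and 114 reads over VIM-AS1, a fold of 1.92, and NQO1, a quinone reductase, 131 and 66 reads over NQO1-AS1, a fold of 1.98. DHX29, a helicase of translation initiation, had 3 peaks over CCNO-DT with 16, 15 and 15 immunoprecipitate reads and 3, 3 and 1 input reads, bounds of at least 5.33, 5.00 and 5.00. BDNF and its much studied antisense gene BDNF-AS gave 3 peaks, all on the BDNF strand, with 16, 18 and 55 immunoprecipitate and 5, 8 and 43 input reads.

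In readthrough genes strand cannot decide, because the lncRNA gene is copied in the same direction as the coding genes it joins. The 26 peaks of the readthrough class fell in 10 such lncRNA genes. HNRNPUL2-BSCL2 had 10 peaks with 202 immunoprecipitate and 102 input reads in all. Of these peaks 9 lay in HNRNPUL2, an hnRNP-like protein, and 1 in BSCL2, which encodes seipin. The folds of the HNRNPUL2 peaks ranged from 1.0 to 3.88. The deepest readthrough peak was in ZFP91 over ZFP91-CNTF, with 196 and 69 reads, a fold of 2.84. Then came ERVK3-1 over ZNF8-ERVK3-1 with 115 and 42 reads (2.74) and ARL2, a small GTPase, over ARL2-SNX15 with 100 and 46 reads (2.17). PRELID3B had 75 and 31, and 71 and 36 reads over SLMO2-ATP5E, and TMX2, a thioredoxin-like membrane protein, had 88 and 49 reads over TMX2-CTNND1. The UPK3BL1 peaks over POLR2J2-UPK3BL1, with 54 and 22 and with 11 and 3 reads, belong to a family of near-identical copies and are uncertain. None of these 10 genes had a peak in the part of its span free of coding genes, but CZ1P-ASNS did. The free parts were small, 0.0730 Mb over the 11 lncRNA genes that peaks of this class touched. Over all 116 lncRNA genes the free parts held 7 peaks on 2.81 Mb (2.49 per Mb). On so little ground a count of 0 says little about the readthrough genes.

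Of the 12 other same-strand peaks 10 lay in ASNS, the asparagine synthetase, inside CZ1P-ASNS, which by its name is a readthrough gene as well. With them the readthrough class has 36 peaks and a median fold of 2.07 in place of 2.23, and 2 peaks remain in the other class. The 10 ASNS peaks held 38 to 170 immunoprecipitate reads and had folds of 1.55 to 2.24, with 994 and 524 reads in all, a fold of 1.90 (share interval 63.1% to 67.8%). The snoRNA host gene SNHG3 and RCC1, the exchange factor of the GTPase Ran, shared a peak with 273 and 115 reads, a fold of 2.37. ARHGAP32 over LOC399975 had 13 and 2 reads, at least 4.33-fold. Peaks of the host class were the coding gene LOC124900276 over SNHG7 (125 and 68 reads, 1.84), ZFP62 over the lncRNA HEIH (52 and 27, 1.93), PRKRIP1 over LOC100630923 (44 and 16, 2.75), and 3 peaks of the Golgi protein GCC1 over LOC105375490. The GCC1 peaks had 25, 18 and 27 immunoprecipitate and 13, 9 and 5 input reads, folds of 1.92, 2.0 and 5.40.

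The 99 unclear peaks held the deepest of all, those of PLAU, which encodes urokinase. Over the span of C10orf55, PLAU had 939 and 453, 685 and 356, and 160 and 92 immunoprecipitate and input reads, folds of 2.07, 1.92 and 1.74. The label put these reads on the PLAU strand, and the strand of C10orf55 was not in the table. LIF, a cytokine, had 537 and 287 reads over LIF-AS1 (1.87), PSMB7, a proteasome subunit, 425 and 231 over LOC100129034 (1.84), and HYOU1, a chaperone of the endoplasmic reticulum, 316 and 167 over HYOU1-AS1 (1.89). STX1A over LOC105375350 had 15 and 3 reads (at least 5.00-fold), and MTMR9 over MTMR9-AS1 21 and 4 (5.25).

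Strands that the table lacked were filled in a further step, chosen after seeing the data. A gene was given the strand opposite to the label of its own peaks outside all other genes where it had at least 2 of 1 label, and an antisense-named lncRNA the strand opposite to its namesake. On genes of known strand, own peaks gave the right strand in 565 of 567 coding genes and the antisense name in 1166 of 1168 lncRNAs. Of the 99 unclear peaks 16 then joined the coding strand and 0 the lncRNA strand. In 41 more the reads lay on the strand of a coding gene while the lncRNA's strand stayed unknown, and in 10 the lncRNA lay on the other strand while the coding gene's strand stayed unknown. The last 32 peaks fell in neither of these groups. Among them, the 4 CTNND1 peaks in TMX2-CTNND1 and the peak in SNHG17 (150 and 70 reads) had reads on the lncRNA's strand. There the coding gene's strand stayed unknown, so these peaks were not assigned. With the filled strands 91 peaks lay on the coding strand and 1 on the lncRNA strand, and for 41 of the 91 the chromosome has peaks of the other label. Peaks of 1 coding gene nearly always share a label: 242 of 244 outside a lncRNA span had the label of those inside. A strand filled from a gene's own peaks therefore puts its members on the coding strand almost by rule. The 16 against 0 is thus no independent support for the coding strand.

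The lncRNA genes were followed into the part of their spans that no coding gene covers. Of the 116 lncRNA genes 83 had such a part, and in 6 of them a peak was found there, 7 peaks in all. LOC124902686 had the peak given above, and CZ1P-ASNS a peak with 15 and 11 reads whose label is also that of the lncRNA. LOC105376392 had peaks with 15 and 5 and with 11 and 3 reads, both with the label of the other strand. For LOC124904456 (47 and 32 reads) and C10orf55 (67 and 30 reads, 1052 bp past PLAU) the strand was not known. The names were given after their values were seen.

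Over the annotation as a whole, ground shared by lncRNA and coding spans held 219 peaks on 64.9 Mb (3.37 per Mb), coding spans alone 4488 peaks on 886 Mb (5.06 per Mb), and lncRNA spans alone 42 peaks on 269 Mb (0.156 per Mb). Within the 1708 coding genes that had any peak, the shared ground held 43.9 peaks per Mb and the rest of the genes 52.7 per Mb. Thus the density of peaks in shared ground was nearer to that of coding genes than to that of lncRNA spans. These densities are a description, as exons were not known.

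Coding genes were next compared with themselves, inside the lncRNA span and outside it. Of the 123 coding genes 49 also had peaks outside, 244 in all, and 242 of these had the label of the gene's peaks inside. The fold of summed reads was higher inside in 23 genes, lower in 25 and equal in 1, counting separately 8 genes that share a peak inside with another of the 49, with medians of 2.01 inside and 2.10 outside. With each peak counted once only, the summed fold was 2.01 inside (8679 and 4310 reads) and 2.08 outside (17711 and 8503). HNRNPK had 1.87 inside and 1.94 outside, VIM 1.92 and 1.87, HSPA9 2.22 and 2.10, and RAD21 2.95 and 2.44, with overlapping intervals in each. In MACROH2A1 alone the intervals were apart, with 368 and 203 reads inside, a share of 64.4% (60.4% to 68.3%), and 351 and 127 outside, a share of 73.4% (69.3% to 77.2%). This gene was singled out after its values were seen, and 49 genes were looked at.

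Along the coding gene the peaks lay toward the end. The centre of the 73 coding-strand peaks with 1 coding gene on the strand of the reads had a median position of 84.0% of the way from start to end (quartiles 64.9% to 94.6%), and 28 of them (38.4%, interval 28.1% to 49.8%) lay in the last 10%. Peaks in coding spans only had a median of 75.9% (50.1% to 92.8%), with 974 of 3155 (30.9%, interval 29.3% to 32.5%) in the last 10%. The intervals of the last 10% overlap for these sets, and both had few peaks in the first 10%, 2.74% and 2.85%. Over the classes together 151 members had such a position, with a median of 85.9% (quartiles 68.6% to 94.6%). Of these 151 members, 61 lay in the last 10% (interval 32.9% to 48.4%). That interval lies just above the one of peaks in coding spans only. Several members come from the same gene, so it is narrower than independent peaks would give. Positions run along the whole span, introns included.

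No peak of the 219 overlapped a peak of the WT list with the same label, a share of 0% (interval 0% to 1.72%). The share over all 4838 E17K peaks is not given here, so this 0 cannot be read as a trait of the members. The lists hardly cover the same ground, as 180 of the 219 lie on a chromosome and label with 0 WT peaks and the other 39 on one with at most 3. In the WT list 35 of 808 peaks (4.33%, interval 3.13% to 5.96%) lay in lncRNA and coding spans, against 4.53% (3.98% to 5.15%) in the E17K list. These were 12 coding-strand, 0 lncRNA-strand, 5 same-strand and 18 unclear peaks, with a median fold of 1.02 beside 0.976 for the whole WT list. SNHG3 was the only lncRNA gene with such a peak in both lists, with 273 and 115 reads for E17K and 13 and 24 reads at another place of RCC1 for WT.

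The labelled cell line was looked up in the same list. Of 8 genes known for high expression in MDA-MB-231, 7 had a peak (VIM, CD44, CAV1, AXL, MET, EGFR and SPARC, but not LGALS1), and of 7 luminal or epithelial genes (ESR1, PGR, CDH1, EPCAM, KRT19, GATA3 and ERBB2) 0 had one. Chromosomes 2, 16 and 22, where EPCAM, CDH1 and LGALS1 lie, hold only peaks of the + label, so the list could show these genes only on the minus strand, and their strands were not in the table. Of 28 genes of the PI3K and AKT pathway and its phosphatases, 8 had a peak, among them AKT1, RICTOR, RHEB, BAD, PPP2CA, PPP2R1A and PPP2R2A. Of these 8, 0 held a peak over a lncRNA span as well, beside 123 of the 1708 coding genes with a peak. With 8 genes a count of 0 is no result about the pathway. Of the 20 without a peak, 6 lie on chromosomes with 0 peaks in the list and 4 on chromosomes with 0 peaks of the label their reads would carry. Of the lncRNAs that the study followed up, AC107959.3 was not analysed here, and SVIL-AS1, MINCR, PVT1, EXOC3-AS1 and NORAD had peaks in the E17K list, 1 to 3 each, and none of these lay in a coding span.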

How the data were processed

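RNA immunoprecipitation sequencing was performed by the authors on MDA-MB-231 cells with Flag-AKT1 E17K or WT, with 1 immunoprecipitate and 1 input library each. The authors deposited 1 peak list per plasmid, in which each peak has counts of reads in the immunoprecipitate and in a control. These deposited counts are whole numbers without normalization, and depth is known only inside peaks, from 11 to 19041 immunoprecipitate reads per E17K peak. The submitters' processing notes name Bowtie2 2.2.8 and hg18, but the AKT1 peaks fall on the GRCh38 position of AKT1, so GRCh38.p14 RefSeq spans were used. The peak caller is not given in the sources used here. The authors' log odds, p-values, false discovery rates and reads per kilobase were not used, and 0 columns of other samples were found.

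Peaks over a lncRNA and a coding span were classed by label and gene strand. Opposite strands gave coding or lncRNA strand. On the same strand, a hyphenated lncRNA symbol made of gene symbols gave readthrough, 1 span inside the other gave host, and anything else gave other. A missing strand gave unclear. Folds used an input floor of 3. Fisher's exact test ran over all 4838 peaks with a threshold of 0.05 on the adjusted p, and was tested on simulated data. Intervals are Wilson 95%. Python 3.11.15, numpy 2.4.6, pandas 2.3.3, scipy 1.17.1, statsmodels 0.14.6 and matplotlib 3.10.9 were used. Named peaks were the 6 deepest and the 4 of highest fold in each class, the 6 lncRNAs with most peaks, and others said to be chosen after their values were seen. The gene lists and members were chosen with earlier results of these data known. Some genes and sequences that these rules would name are not reported here.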

Additional observations from a re-analysis of the deposited data

How the results depend on the processing

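Of 83 alternative values 71 stayed within their interval or within 1.5 times the count given. With at least 50% of the peak in each span, the lncRNA strand held 0 peaks. With the label read as the gene's own strand, the coding strand held 1 peak, the lncRNA strand 76, and the readthrough and other same-strand classes 0 each, and the coding strand had a median and a summed fold of 1.56 from its 1 peak. In peaks with at least 30 immunoprecipitate reads the median of all members was 1.99, and with 1 peak for each lncRNA the median of same-strand peaks other than readthrough was 2.37 beside 2.03. A fold of at least 3 was reached by 44 members, beside 20.3% of all list peaks, and a fold of at least 4 with at least 30 immunoprecipitate reads by 4 (2.76% of such members and 2.75% of such list peaks), the last chosen after seeing the data. With CZ1P-ASNS counted as readthrough, also chosen after seeing the data, 8 same-strand peaks other than readthrough were left in place of 18. No paired analysis was possible because each group has 1 library. Without library totals a fold can be read only against other peaks of the list, and peaks under 30 reads have wide intervals.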
